A study of Mus musculus with 12 samples.

Results

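The genes described here encode the translation initiation factors (eIF) and elongation factors (eEF) of the cytosol. They were chosen by name only, as the gene symbols that begin with Eif1 to Eif6, Eef1 or Eef2 and go on in lower-case letters and digits, and no measured value entered the choice. The eIF2 kinases (Eif2ak), the eIF4E-binding proteins (Eif4ebp), Eef1e1, Eif2s3x and Eif2s3y were left out. The rule found 54 of the 38924 genes in the table, and 52 of them had enough counts to be tested. Eif2c5, whose symbol belongs to an older naming of Argonaute genes, had 0 counts in all 12 libraries, and Eif4e1b, an eIF4E homolog known from the oocyte, had 6 counts over the 12 libraries.

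Whole spinal cord was taken from 12 mice aged 8 weeks on a mixed B6J;FVB background, and its polyadenylated RNA was sequenced. In 6 mice, called ETAQ here, the genotype label reads ETAQ+/-, which is 1 copy of the delETAQ allele of Gars. The other 6 mice were wild type (WT) at Gars, and each genotype had 3 females and 3 males. Gars encodes glycyl-tRNA synthetase, and the allele takes its name from the short run of amino acids that it lacks; this deletion cannot be seen in counts per gene, so the counts do not check the genotype labels. The labels name no transgene and no pooling of animals. The design text states the comparison of WT with mutant cord, and here it is made for the factors that use the charged tRNA or act just before its use.

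Initiation starts when eIF2, bound to GTP, brings the initiator tRNA to the small ribosomal subunit, with eIF1, eIF1A, eIF5 and the large scaffold eIF3. The eIF4F complex binds the mRNA cap and loads this subunit, which scans to a start codon, and eIF2B recharges eIF2 with GTP afterwards. In elongation eEF1A delivers each charged tRNA and eEF2 moves the ribosome on, and eIF5A, despite its name, helps ribosomes through sequences where peptide bonds form slowly. Dominant mutations in glycyl-tRNA synthetase cause a peripheral neuropathy of motor and sensory axons, and phosphorylation of eIF2 is the switch of the integrated stress response, a change of protein that counts of transcripts do not measure.

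Library totals ranged from 23595929 to 41452662 expected counts. CPM below means counts scaled by library total with TMM factors. The mice fell into 2 sets by number. In mice 1 to 6 the summed CPM of 6 skeletal muscle markers was 43.4 to 762, against 0.814 to 1.49 in mice 7 to 12, and all 6 muscle, 4 red blood cell, 4 neutrophil and 3 Schwann cell markers differed between the sets. Each set held 3 mice of each genotype, but the WT mice of the first set were all male and those of the second all female. The summed markers of neurons, oligodendrocytes, astrocytes and microglia were each at 129 CPM or more in every library. The genotypes were also narrowly apart in summed neuronal markers. Over Snap25, Rbfox3, Syt1 and Tubb3, CPM ran from 2614 to 2877 in ETAQ and from 2881 to 3055 in WT, with 0 of these 4 called. Snap25 had the largest CPM of the 4, and alone it overlapped (1943 to 2189 in ETAQ, 2176 to 2284.5 in WT). Rbfox3 and Syt1 also overlapped, and Tubb3 did not. Of 3 tested motor neuron markers, 1 was called: Chat, which marks cholinergic neurons, was lower (log2 fold change -0.64, edgeR adjusted p = 2.62e-06). Slc5a7 (-0.28, edgeR adjusted p = 0.138) and Isl1 (-0.02, edgeR adjusted p = 0.986) were not called. No gene with the symbol Slc18a3 was among the deposited values. In bulk tissue, fewer cells of a type and less RNA per cell cannot be told apart. The part of these shifts in the values below was not tested, except where values within a set are given.

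Factor transcripts were nearly level between the genotypes. Of the 52 genes tested, 1 was called higher in ETAQ, Eif3c, 0 were called lower and 51 were not called (edgeR quasi-likelihood test, sex as covariate, adjusted p under 0.05). Among all 17189 genes tested, 0.582% were called higher and 1.34% lower. At an unadjusted p under 0.05 the count was 5 of 52 (9.62%), close to the 10.9% of all genes: Eif3c above WT, and Eef1a2, Eif3b, Eif5a and Eif5a2 below it. In 0 of 52 genes did the 6 ETAQ and 6 WT mice fail to overlap, against 2.01% of all genes. DESeq2 called 2 of 52 members, Eif3c and Eef1a2, and 2.95% of all genes.

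The differences were small and the intervals narrow. The median absolute log2 fold change was 0.032 over the members, against 0.059 over all genes tested, and the standard errors ran from 0.025 to 0.084. The 95% interval of the genotype effect stayed within 1.2-fold in either direction for all 52 genes, and within 1.1-fold for 39. Over all 17189 genes tested, 10292 intervals stayed within 1.2-fold and 4688 within 1.1-fold. The median standard error was 0.034 over the members and 0.064 over all genes tested. The smaller changes of the members thus came with smaller errors. The outermost bounds were -16.1% (Eif4e3) and +14.6% (Eif3c). A change of 1.2-fold or more thus lies outside the interval of each tested factor in whole spinal cord, where single cell types such as motor neurons are not resolved.

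As a group the factors lay slightly below the middle of all genes. With TMM, 40 of 52 log2 fold changes (76.9%) were below 0, against 48.1% of all genes, and with the median-of-ratios scaling (RLE) 37 of 52 (71.2%) were, against 47.1%. Scaling by library totals moved all genes upwards together, so that 24 of 52 (46.2%) and 36.0% of all genes were below 0, and on TPM the counts were 19 of 52 (36.5%) and 31.9%. The position relative to all genes moved little: the members' median was -0.019 against 0.004 with TMM, 0.005 against 0.028 with library totals and 0.014 against 0.039 on TPM. The members' median lay below that of all genes by 0.019 to 0.032 on the log2 scale in the main fit and the 26 alternatives, which share the same mice. No test was made of this gap.

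**Figure D1:**
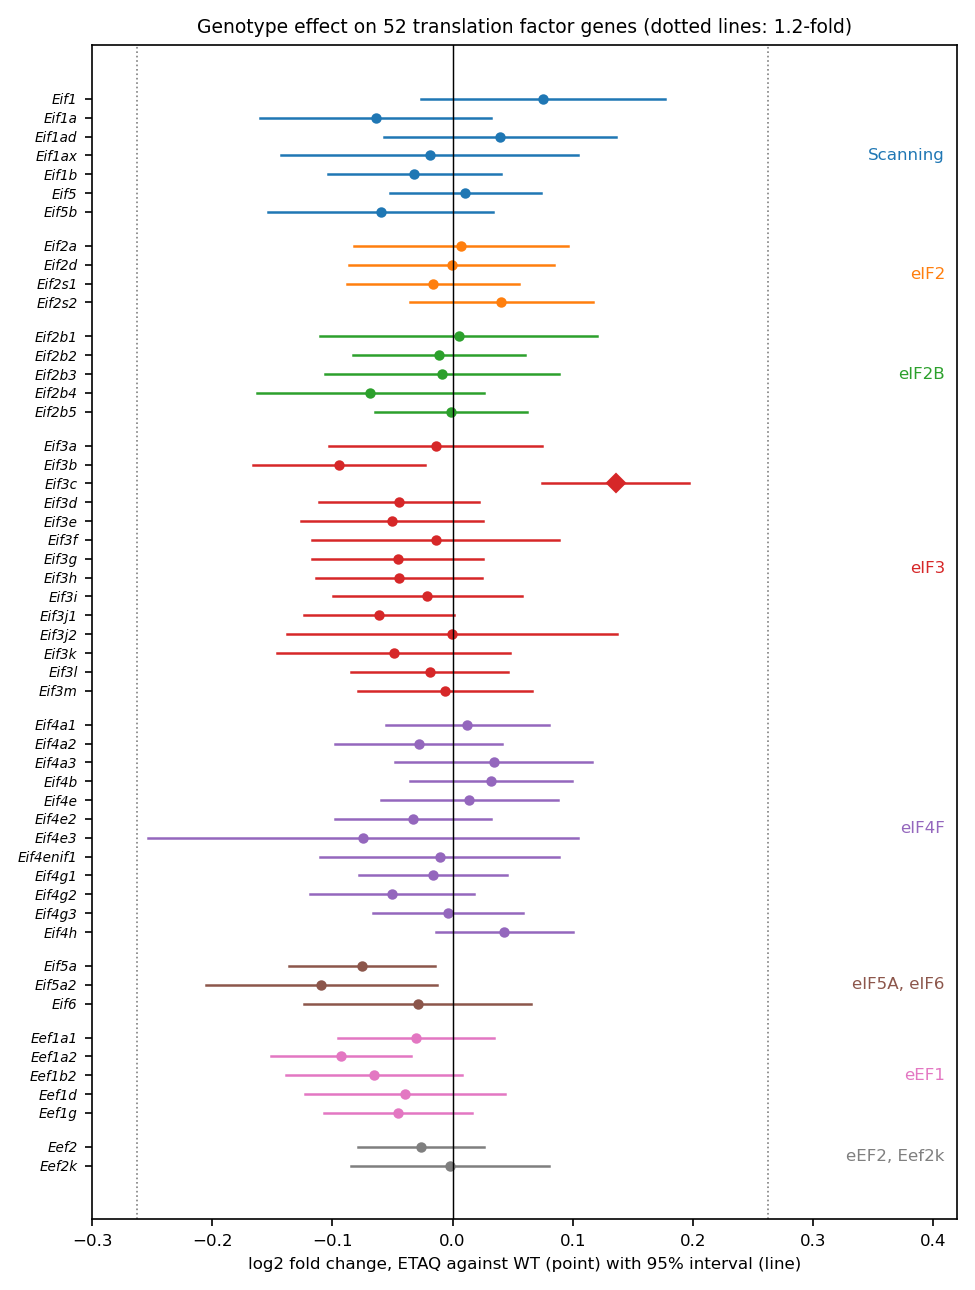
Log2 fold change of each of the 52 tested factor genes, ETAQ against WT (horizontal axis), with its 95% interval; colours mark the factor groups, the diamond marks the gene called at an adjusted p under 0.05, and dotted lines mark 1.2-fold. Every interval lies inside the dotted lines, and Eif3c has the highest value of all 52.

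The scaffold eIF3 was represented by 14 genes, of which 1 rose, 0 fell and 13 were not called. Eif3c (ENSMUSG00000030738) encodes a core subunit of eIF3 that contacts eIF1 and eIF5 on the small ribosomal subunit. It lies on chromosome 7 at 126546455 to 126566411 on the minus strand (GENCODE M21, build GRCm38), and no exon of another gene overlaps its exons. In the ETAQ mice 1, 5, 6, 8, 9 and 11 its CPM was 198, 186, 195, 198, 204 and 197. In the WT mice 2, 3, 4, 7, 10 and 12 it was 170.1, 167, 179.8, 182, 187 and 187. The genotypes overlapped through 1 animal, ETAQ mouse 5, which lay below WT mice 10 and 12 of the other set. Within each set every ETAQ mouse was above every WT mouse.

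Mean Eif3c CPM was 196 ± 6.02 in ETAQ and 179 ± 8.42 in WT (SD, n = 6 each). The log2 fold change was 0.14 ± 0.03 (SE), with an edgeR adjusted p of 0.0216 and an interval from +5.31% to +14.6%. The first set of mice alone gave 0.15 on the log2 scale (adjusted p = 0.18) and the second set alone 0.12 (adjusted p = 0.304). In females it was 0.11 (adjusted p = 0.423) and in males 0.16 (adjusted p = 0.128). The direction was thus shared by both sets and both sexes, and the size was close to the whole, but no such subset passed the test alone. The fits within each sex had no term for the sets. WT females were all in mice 7 to 12 and WT males all in mice 1 to 6, while ETAQ mice of each sex came from both. The values by sex therefore also carry the set difference, and they are not independent of the values by set. The call itself was not stable: it was lost without WT mouse 2 (adjusted p = 0.0649), WT mouse 3 (0.0542), WT mouse 7 (0.0529), ETAQ mouse 6 (0.0637) or ETAQ mouse 9 (0.0555), although the log2 fold change stayed between 0.12 and 0.15 over the 12 omissions. It was also lost with no covariate (adjusted p = 0.0845) and on TPM with limma (0.113), and the smallest adjusted p, 6.63e-05, came from DESeq2. With the mouse set as covariate edgeR kept the call, both beside sex (adjusted p = 0.0089) and in place of sex (0.00972).

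Eif3c was also set against its partners within each mouse, where no scaling enters, a comparison chosen after its values were seen. The CPM of Eif3c over the geometric mean CPM of the other 13 eIF3 genes was 3.22 ± 0.0914 in ETAQ (3.11 to 3.38) and 2.86 ± 0.135 in WT (2.68 to 3; SD, n = 6 each). These ranges did not overlap. Treated the same way, the genotypes overlapped in each of the other 13 eIF3 genes, whose ratios have Eif3c in the denominator. The log2 fold changes of these 13 were all below 0 with TMM, so their lower values in ETAQ also enter the Eif3c ratio. No share of all genes was computed for such a ratio. This ratio contains gene length, so it compares genotypes and not subunits, and it is given as a description with no test.

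The transcripts of Eif3c share 4.38% of their 75-base stretches, the read length, with an annotated copy, Gm11224, which was listed at 0 counts in all 12 libraries. Of the 72 other tested genes within 1 Mb of Eif3c, 0 were called by edgeR and 6 had an unadjusted p under 0.05. Over all genes tested, 0.582% were called higher, 1.34% were called lower and 10.9% had an unadjusted p under 0.05. The nearest tested neighbour, Cln3, a lysosomal membrane protein gene 4.8 kb away, had a log2 fold change of 0.13 ± 0.06 (adjusted p = 0.441). Within 5 Mb, 1 of 148 was called, Cacng3, named here because the count is 1. The promoter of the only factor called is shown next, with 250 bases before the annotated start in lower case and 50 bases from the start on in capitals (RefSeq, GRCm38.p6).
Eif3c chr7:126566317-126566616 (minus strand): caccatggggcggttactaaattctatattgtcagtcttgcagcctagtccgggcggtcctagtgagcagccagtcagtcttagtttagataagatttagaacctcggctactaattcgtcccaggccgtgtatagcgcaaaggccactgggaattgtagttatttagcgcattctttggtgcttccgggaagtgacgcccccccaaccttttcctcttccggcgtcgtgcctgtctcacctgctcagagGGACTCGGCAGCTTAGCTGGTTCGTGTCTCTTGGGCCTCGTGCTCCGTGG

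The other eIF3 genes lay between -0.09 and 0.00 on the log2 scale. Eif3b, a core subunit beside eIF3a, had the lowest value of the complex. Its CPM was 83.3 to 94.1 in ETAQ (median 87.3) and 91.1 to 99.0 in WT (median 94.0). The groups overlapped in ETAQ mice 6 and 11, and the log2 fold change was -0.09 ± 0.03 (adjusted p = 0.249). Of the 14 eIF3 values, 13 were below 0 with TMM, 12 with RLE, 7 with library totals and 7 on TPM, against 48.1%, 47.1%, 36.0% and 31.9% of all genes. The median of the 14 was -0.033 with TMM (all genes 0.004) and -0.009 with library totals (all genes 0.028). Eif3j1 and Eif3j2, which encode a loosely bound subunit, share 87.4% of the stretches of Eif3j2, so reads could be divided between them by the counting. Their log2 fold changes were -0.06 ± 0.03 and 0.00 ± 0.06 (adjusted p = 0.474 and 1). For Eif3d, 43.3% of exon bases also lie in Gm17638 on the opposite strand, and its value (-0.04 ± 0.03, adjusted p = 0.689) is uncertain because the strand setting of the counting is not given in the sources used here.

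**Figure D2:**
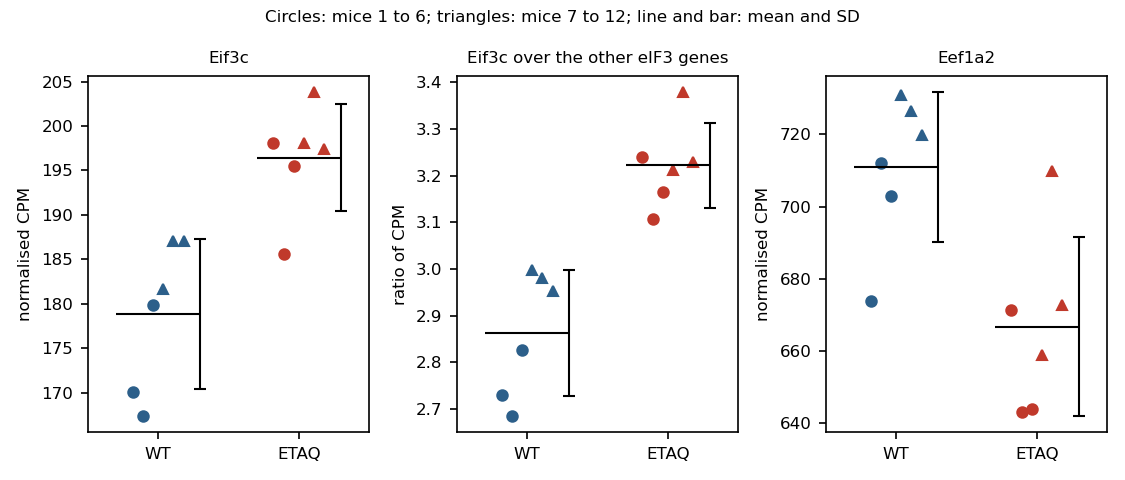
Normalised CPM of Eif3c (left), the ratio of Eif3c to the geometric mean of the other 13 eIF3 genes in the same mouse (middle) and CPM of Eef1a2 (right) for 6 WT and 6 ETAQ mice; axes do not start at 0. Circles are mice 1 to 6, triangles mice 7 to 12, and lines with bars give mean and SD; only in the middle panel are the genotypes fully apart, at 2.68 to 3 in WT and 3.11 to 3.38 in ETAQ.

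Among the elongation factors, 0 of 5 eEF1 genes and 0 of 2 genes of the eEF2 group were called. Eef1a2 (ENSMUSG00000016349), the form of eEF1A found in adult neurons and muscle, came closest. Its CPM was 643 to 709.9 in ETAQ (median 665) and 674 to 731 in WT (median 716). The overlap came from ETAQ mouse 9, which lay above WT mice 2 and 4, and within each set every ETAQ mouse was below every WT mouse. The log2 fold change was -0.09 ± 0.03, which edgeR did not call (adjusted p = 0.131, interval -9.96% to -2.37%) and DESeq2 did (adjusted p = 0.0118). The summed neuronal markers were also lower in ETAQ, as given above, with Snap25 at -0.11 ± 0.03, Tubb3 at -0.10 ± 0.03, Rbfox3 at -0.10 ± 0.03 and Syt1 at -0.01 ± 0.07; their part in the Eef1a2 value was not tested. Skeletal muscle markers, which differed between the sets, gave 0 of 6 calls by genotype. Their log2 fold changes ran from -1.16 ± 2.30 (Myh4) to 0.41 ± 1.40 (Myh1), with 5 of 6 below 0. Such wide errors cannot show whether muscle RNA differed by genotype, and its part in the Eef1a2 value was not tested. Between the sets, Eef1a2 itself had a log2 difference of 0.04 (edgeR adjusted p = 0.585).

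Eef1a1, the form of eEF1A in most other cells, was at 1472 ± 52 CPM in ETAQ and 1503 ± 60.1 in WT (log2 fold change -0.03 ± 0.03, adjusted p = 0.808). It shares 26.6% of its 75-base stretches with other annotated genes, mostly processed copies, so its counts are less certain than those of Eef1a2, which shares 0%. The eEF1B exchange factor, which recharges eEF1A, comprises Eef1b2 (-0.07 ± 0.03, adjusted p = 0.527), Eef1d (-0.04 ± 0.04, adjusted p = 0.805) and Eef1g (-0.05 ± 0.03, adjusted p = 0.646), and 38% of the stretches of Eef1g are shared. All 5 eEF1 values were below 0 with TMM and with library totals, and 4 were on TPM. Eef2, the translocase, was at 1190.4 to 1247 CPM in ETAQ and 1194 to 1274 in WT, with a log2 fold change of -0.03 ± 0.02 (adjusted p = 0.795). Its inhibitory kinase Eef2k was at 0.00 ± 0.04 (adjusted p = 0.993).

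In 3 members, chosen after their values were seen, the genotypes were apart within mice 1 to 6 and again within mice 7 to 12, in the same direction: Eif3c above WT, and Eef1a2 and Eif5a below. Over all genes tested, 1.34% did so above WT and 2.37% below. The members' counts of 1 and 2 of 52 are near these shares.

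Eif5a, whose protein carries the modified lysine hypusine, was at 147 to 161 CPM in ETAQ (median 155) and 155 to 173 in WT (median 163). The full groups overlapped, with WT mouse 10 at 155 below ETAQ mice 1, 5 and 6, and WT mouse 7 at 158 below ETAQ mice 5 and 6. The log2 fold change was -0.08 ± 0.03 (adjusted p = 0.296). Its paralog Eif5a2 was at 160.5 to 185 CPM in ETAQ (median 174) and 169.8 to 202 in WT (median 188), with a log2 fold change of -0.11 ± 0.04 (adjusted p = 0.361), the lowest of all 52. Eif6, which keeps the ribosomal subunits apart, was at -0.03 ± 0.04 (adjusted p = 0.888). None of the 3 was called by edgeR, and 2 of 3, Eif5a and Eif5a2, had an unadjusted p under 0.05.

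The 7 genes listed under start codon scanning, Eif1ad among them, gave 0 calls. The list does not establish that each protein acts in scanning. Eif1, which guards the choice of the start codon, had the highest value, 0.08 ± 0.05 (adjusted p = 0.645). Its CPM was 205 to 225 in ETAQ (median 212) and 167 to 226 in WT (median 206). The 6 ETAQ mice were close together, while WT mice 7, 10 and 12 of the second set, at 167, 192 and 198, lay below all of them and WT mice 3 and 4 lay among the highest. The lowest value was that of Eif1a, one of the 2 eIF1A genes (-0.06 ± 0.04, adjusted p = 0.692), and the other, Eif1ax, was at -0.02 ± 0.06 (adjusted p = 0.951). Eif5, which makes eIF2 hydrolyse its GTP, was at 0.01 ± 0.03 (adjusted p = 0.946).

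Among eIF2 and the proteins that can bring a tRNA in its place, 0 of 4 were called. Eif2s1, the subunit phosphorylated in the stress response, was at 37.9 to 41 CPM in ETAQ and 38.4 to 42.5 in WT, with a log2 fold change of -0.02 ± 0.03 (adjusted p = 0.923, interval -5.90% to +3.89%). Eif2s2, its beta partner, had the highest value (0.04 ± 0.04, adjusted p = 0.768). Eif2a and Eif2d, which act without eIF2, were at 0.01 ± 0.04 and 0.00 ± 0.04 (adjusted p = 0.978 and 0.998).

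The exchange factor eIF2B, the target of phosphorylated eIF2, gave 0 calls in 5 subunits. Eif2b4 was lowest, with 22.4 to 25.8 CPM in ETAQ and 24 to 27.8 in WT (log2 fold change -0.07 ± 0.04, adjusted p = 0.655). Eif2b1 was highest (0.01 ± 0.05, adjusted p = 0.988). The catalytic subunit Eif2b5 was at 0.00 ± 0.03 (adjusted p = 0.993, interval -4.40% to +4.37%).

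The 12 tested genes listed under the cap-binding complex eIF4F and its cofactors, Eif4a3 among them, gave 0 calls. This list does not establish that each protein belongs to the complex. Eif4h, a cofactor of the helicase eIF4A, was highest (0.04 ± 0.03, adjusted p = 0.63), and Eif4e3, a cap-binding homolog, was lowest (-0.07 ± 0.08, adjusted p = 0.836) with the widest interval. The helicases Eif4a1 and Eif4a2 were at 0.01 ± 0.03 and -0.03 ± 0.03 (adjusted p = 0.941 and 0.841), and 25.4% of the stretches of Eif4a1 are shared with other genes. The cap-binding protein gene Eif4e was at 0.01 ± 0.03 (adjusted p = 0.938). The scaffolds Eif4g1, Eif4g2 and Eif4g3 were at -0.02 ± 0.03, -0.05 ± 0.03 and 0.00 ± 0.03 (adjusted p = 0.907, 0.646 and 0.984); Eif4g2 lacks the part that binds eIF4E.

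**Figure D3:**
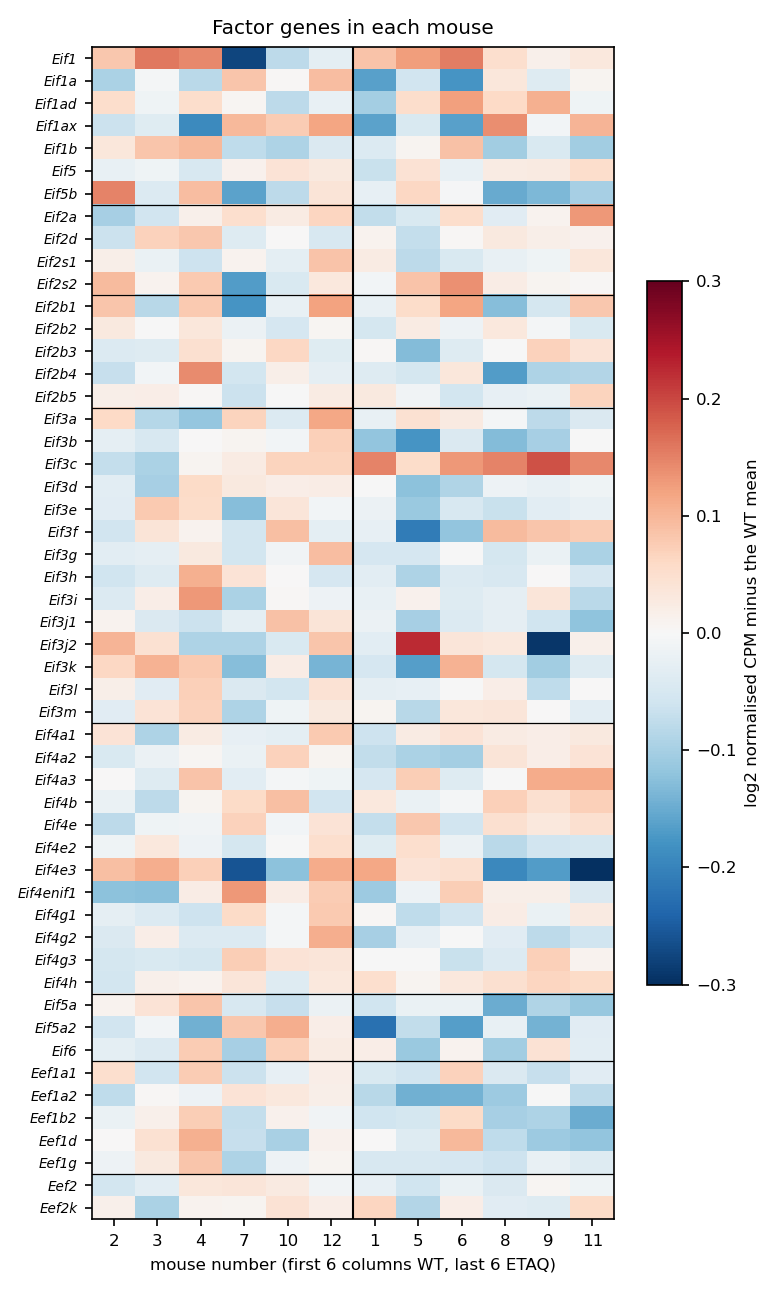
Log2 normalised CPM of each factor gene in each mouse minus its WT mean (colour, limited to -0.3 to 0.3), with WT mice on the left and ETAQ mice on the right; horizontal lines part the factor groups in the order of the plot of genotype effects. Eif3c is above the WT mean in all 6 ETAQ mice, and Eif4e3 and Eif1ax follow the 2 sets of mice.

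Per length, the factor transcripts spanned a wide range of levels. TPM, a level scaled for gene length and library total, of the 54 genes summed to 8288 ± 335 in ETAQ and 8193 ± 344 in WT (SD, n = 6 each), on average 0.824% of all TPM. Eef1a1 led with 1615 ± 58.9 TPM over the 12 mice, followed by Eef2 (722 ± 38.7), Eif4a2 (692 ± 45.7), Eef1a2 (626 ± 43.6) and Eif1 (418 ± 45.1). Eef1a1 lay above Eef2 in every library, but the ranges of Eef2, Eif4a2 and Eef1a2 overlapped. The lowest of the tested genes were Eif1ad (15 ± 0.873) and Eif4e3 (9.37 ± 0.89). In the order of the 54 genes, 46 of 53 neighbouring pairs had overlapping ranges. Shared sequence makes some levels less certain: besides the genes named above, 75-base stretches shared with other annotated genes made up 15.3% of Eif1, 12.7% of Eif3h, 9.5% of Eif4e3, 9.42% of Eif3m, 8.55% of Eif4a3, 7.92% of Eif2s2, 6.26% of Eif4a2 and 5.06% of Eef1b2. Exons of another gene on the opposite strand covered 19% of Eif3j1, 16.8% of Eif5b, 15.3% of Eif1ad, 12.7% of Eif1b, 7.85% of Eif2b4 and 5.11% of Eif6, besides Eif3d. Exons on the same strand covered 14.8% of Eif4e3, 9.63% of Eif4a2, 6.95% of Eef1b2 and 6.62% of Eif4a1.

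Within the complexes, the subunits of one particle had unequal transcript levels. In eIF3, Eif3k (164 TPM) and Eif3h (138) were highest and Eif3j2 (17.2) lowest, with Eif3c at 106 ± 7.16 in ETAQ and 94.1 ± 6.72 in WT. In eIF2B, Eif2b2 was at 76.5 TPM and Eif2b3 at 18.2. In eIF2 and its alternatives, Eif2s2 was at 69.4 TPM and Eif2s1 at 21.1. The eEF1 genes together came to 2846 ± 120.4 TPM in ETAQ and 2864 ± 97.9 in WT, and the 14 eIF3 genes to 1105 ± 58.2 and 1090.0 ± 48.6.

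**Figure D4:**
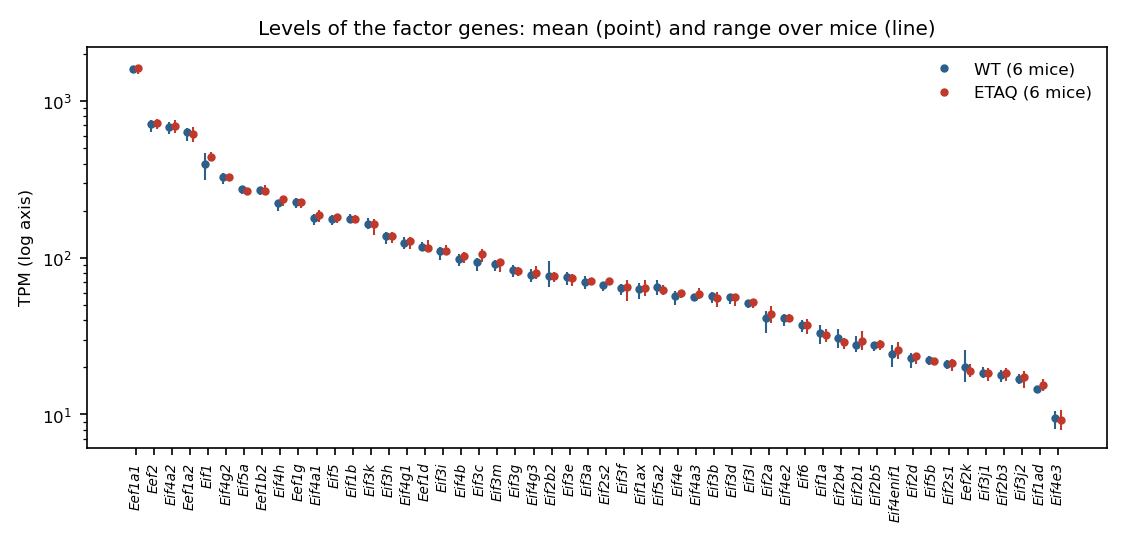
TPM (log axis) of the 52 factor genes above 0.1 TPM, ordered by mean over 12 mice; points are means and lines the range over 6 WT (blue) or 6 ETAQ (red) mice. Levels run from 1615 TPM for Eef1a1 to 9.37 for Eif4e3, with WT and ETAQ drawn side by side for each gene.

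Where a factor has several gene copies, their mix was much the same in both genotypes. Eif4a2 made up 78.8% ± 0.488 of eIF4A TPM in ETAQ and 79.3% ± 0.632 in WT (SD, n = 6 each). The neuronal Eef1a2 gave 27.5% ± 1.23 of eEF1A TPM in ETAQ (25.5 to 29.3%) and 28.4% ± 1.29 in WT (26.6 to 29.9%). Eif5a2 gave 18.9% ± 1.28 of eIF5A in ETAQ and 19.2% ± 1.67 in WT. Eif4g2 was the largest of the eIF4G genes, at 61.1% ± 1.21 and 61.7% ± 1.13. Eif4e gave 53.9% ± 2.31 and 52.9% ± 1.54 of the 3 cap-binding genes, and Eif4e3 8.41% ± 0.9 and 8.80% ± 0.864. Eif1ax gave 66.6% ± 0.833 and 65.7% ± 1.11 of eIF1A, and Eif3j1 51.4% ± 3.32 and 52.1% ± 1.65 of eIF3j, a split that rests on how shared reads were divided. Eif1, a pair added after the values were seen, gave 71.3% ± 0.732 in ETAQ and 69.1% ± 2.33 in WT, where WT mouse 7 had the lowest share (64.6%). The ranges of ETAQ and WT overlapped in every family.

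**Figure D5:**
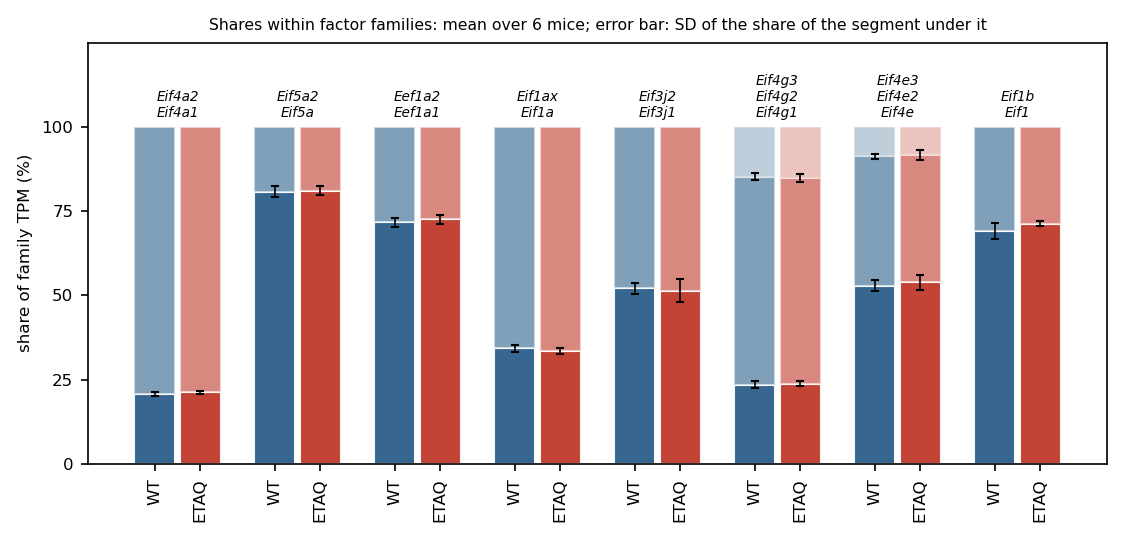
Share of each family's TPM (%) by gene copy, as stacked bars of the mean over 6 WT (blue) or 6 ETAQ (red) mice; gene names above each pair are in stacking order, and error bars give the SD of the segment under them. Mean shares of WT and ETAQ differ by less than 2.33 percentage points, the SD of the Eif1 share in WT.

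No member's genotype effect was shown to differ between the sexes or the sets. Within females 0 members were called (background 0.739% of all genes), and within males 0 (0.669%). Within mice 1 to 6 the count was 0 (0.803%), and within mice 7 to 12 it was 0 (0.937%). The difference of the male and female effects was called by edgeR for 0 of 52 members, with 4 of 52 at an unadjusted p under 0.05 (4.96% of all genes) and a smallest adjusted p of 0.901. The fits by sex had no term for the sets. Because sex and set coincide in the WT mice, the effects by sex and their difference also carry the set difference. The difference of the effects in the 2 sets was called for 0, with 1 of 52 at an unadjusted p under 0.05 (3.97% of all genes) and a smallest adjusted p of 0.995. Over all genes, both kinds of difference were called for 0.

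The sets of mice themselves differed in some factors. Mice 7 to 12 differed from mice 1 to 6 in 2 of 52 members by edgeR, which called 7.89% of all genes, and in 5 of 52 by DESeq2, which called 9.09%. Eif1ax (ENSMUSG00000067194), on chromosome X, had 165 to 183 CPM in the first set and 187 to 207 in the second, with no overlap (log2 difference 0.22, adjusted p = 0.00759). It was at 168 CPM in the female mouse 1 and at 202 CPM in the male mouse 11. Eif4e3 was lower in mice 7 to 12, at 10.4 to 14.1 CPM against 13.4 to 14.1 (log2 difference -0.31, adjusted p = 0.0216); WT mouse 12 was the exception, at the level of the first set. DESeq2 added Eif4a2, Eif5 and Eif5a2, all higher in mice 7 to 12. The muscle, blood and Schwann cell markers that part the sets moved with these values, as did 1 of 4 neuron markers (Syt1, 0.29 higher in mice 7 to 12, adjusted p = 0.000141) and 1 of 4 astrocyte markers (Aldh1l1, -0.20, adjusted p = 0.013); their part was not tested.

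Of 47 listed genes that act with these factors (kinases and phosphatase subunits of eIF2, 4E-BPs, poly(A)-binding and recycling factors, hypusine and diphthamide enzymes, mitochondrial factors and others), all 47 were tested, 0 rose, 1 fell and 46 were not called by edgeR. For comparison, 0.582% of all genes tested were called higher and 1.34% lower. The median log2 fold change of the 47 was -0.007. The gene that fell was Denr (ENSMUSG00000023106), whose protein pairs with MCTS1 to recycle small ribosomal subunits and restart initiation after short upstream reading frames. Its CPM was 55.0 to 58.8 in ETAQ and 58.3 to 63.9 in WT. ETAQ mouse 5 lay above WT mouse 12, the only overlap. The log2 fold change was -0.13 ± 0.03 (adjusted p = 0.042). The call held in 3 of 12 fits with 1 mouse left out, those without WT mouse 3, ETAQ mouse 5 or WT mouse 12. In the other 9 the call was lost, with an edgeR adjusted p of 0.0612 to 0.113. The call was also lost with library totals (-0.10, adjusted p = 0.116), without the filter on low counts (adjusted p = 0.0556), on TPM (-0.03, adjusted p = 0.936) and within each set and each sex.

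The starts of these genes were searched for 5 sequence features, in RefSeq windows of 300 bases (250 before the start, 50 after; GRCm38.p6) that were found for 42 of the 54 members. TGATGCAA, a site known for the stress factors CHOP and ATF4, was in 0 of 42 members and in 1.03% of 27025 genes, on either strand. TGACGTCA, the cyclic AMP response element, was in 1 member (2.38%, against 2.03%), and TATAAA in 4 (9.52%, against 15.7%). A run of 8 or more C or T on the sense strand, within 20 bases on either side of the start, was in 10 (23.8%, against 18.4%). Such a run crosses the annotated start in Eef1a1 but lies wholly before it in Eef1a2, outside the annotated mRNA. The 10 also include Eif2c5, which had 0 counts. This count therefore does not give the mRNAs with a terminal oligopyrimidine tract. CCGGAAGT, the core bound by ETS factors such as GABP, was searched after the members' starts had been read and was in 8 (19%, against 4.31%). None of the 8 was called, and their log2 fold changes lay between -0.11 (Eif5a2) and -0.01 (Eif2b2). Because the letters were picked from these sequences, the share is a description. It stands in the 30-base windows below in capitals, in either orientation, for the 2 eIF5A genes, 2 eIF3 genes and Eef1b2; Eif5a2 has it in 2 places.
Eif5a chr11:69920667-69920696 (minus strand): cagccgtagcaCCGGAAGTgttccccattg
Eif3d chr15:77970877-77970906 (minus strand): agctgtgacacACTTCCGGttgtgtctcac
Eif3l chr15:79075176-79075205 (plus strand): ggctgggcgggACTTCCGGtccggccaagc
Eef1b2 chr1:63176821-63176850 (plus strand): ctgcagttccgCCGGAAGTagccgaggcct
Eif5a2 chr3:28781102-28781131 (plus strand): agctctgcacgCCGGAAGTgcactaatccg
Eif5a2 chr3:28781230-28781259 (plus strand): cggggcctatcCCGGAAGTgtggtcgcggc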

How the data were processed

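RNA sequencing (polyA selection, 75 bp paired reads) of whole spinal cord was done with 2 KAPA kits, per the labels' protocols, which do not assign them to libraries. The submitters' processing notes list Bowtie2 2.2.0 and RSEM 1.2.12. Build, annotation and strand setting are not given in the sources used here. Per the file headers, the deposited values are expected counts (15.4% of them not whole) and TPM, a level that the authors scaled by gene length and library. The deposited FPKM values were not used.

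Expected counts were rounded and tested with edgeR 4.0.16 in R 4.3.3 (filterByExpr on 4 genotype-by-sex groups, TMM, robust quasi-likelihood test, sex as covariate, Benjamini-Hochberg over 17189 genes, threshold 0.05). TPM served only for levels and 1 alternative. DESeq2 1.42.0 and limma 3.58.1 were alternatives. A count of 0 allows up to 3 counts, 0.0724 to 0.127 CPM by library, for counting error only. Each library is 1 mouse by its title, and p-values weigh a difference against the spread between these mice. In the main fit that spread is what remains after sex, with no term for the mouse sets. The test was checked on simulated data. Positions and shared 75-base stretches came from GENCODE M21, matched by Ensembl ID for all 54 genes. A share of 5% or more of stretches was found for 13 tested genes, and 11 had at least 5% of exon bases in another gene.

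The members and lists were chosen with earlier results of these data known. Named were each gene called, the highest and lowest fold change and level in each factor group, the paralog pairs, and called partners. Eif3c's ratio and neighbours, the Eif1 pair, separation within both sets, Denr's alternatives and the promoter searches were added after values were seen.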

Additional observations from a re-analysis of the deposited data

Results flagged for a closer look

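In 6 of 104 groups of 6 mice (52 genes in 2 genotypes) 1 mouse lay far from the other 5, by a gap of more than 0.625 of the group's range; chance gives such a gap in about 1 group in 20, so this number is near what chance gives. Eef1a1 was at 1575 CPM in ETAQ mouse 6, against 1431 to 1467 in the others. Eif4a1 was at 133 CPM in ETAQ mouse 1, against 141 to 143. Eif2d was at 21.8 CPM in ETAQ mouse 5, against 23 to 23.4. Among WT mice, Eef2k was at 30.8 CPM in mouse 3 (others 33.2 to 34), Eif2b5 at 46.4 CPM in mouse 7 (others 48.5 to 49.3) and Eif4a3 at 43.5 CPM in mouse 4 (others 39.9 to 41). The 6 genes and 6 mice were all different, and none of the 6 genes was called between genotypes.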

How the results depend on the processing

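Over 26 alternatives, 1340 of 1352 log2 fold changes of members kept their side of the threshold, 11 lost a call (all Eif3c), 1 gained one (Eef1a2 with DESeq2, -0.09) and 0 reversed. Within the 1340, 151 changed sign while neither value was called. The count of members called higher, 1, was 0 with no covariate, on TPM, within mice 1 to 6, within mice 7 to 12, within females and within males, and 0 to 1 when each mouse was left out. The count called lower, 0, was 1 with DESeq2. The count differing between sets, 2, was 5 with DESeq2. Eif3c was called in 15 of 26 alternatives, with log2 fold changes from 0.11 to 0.18 and adjusted p from 6.63e-05 to 0.423; Denr was called in 10 of 26, from -0.14 to -0.03. Summed TPM of all members in WT was 8193, and 8314 without mice 1 to 6. No paired analysis was possible because the genotypes share no mouse number. Eif4e1b and Eif2c5, with 6 and 0 counts, were below the filter; the other 52 genes had a mean of 12.8 CPM or more.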
